A study of Homo sapiens with 36 samples.

Results

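The mevalonate pathway enzymes examined here were 8 genes of the deposited HepG2 count table, namely ACAT2, HMGCS1, MVK, PMVK, MVD, IDI1, FDPS and GGPS1, out of 18932 genes in all. They were taken by gene symbol, as enzymes of the route from acetyl-CoA to farnesyl and geranylgeranyl diphosphate, and no measured value enters that rule, although the list was drawn up with earlier results of these data known. HepG2, an established human hepatoma cell line, was exposed in serum-free medium with bovine serum albumin to vehicle (Ctrl) or to 50 µM docosahexaenoic acid (DHA), 70 µM propionate (PRO), 20 µM protocatechuic acid (PCA), DHA+PRO or DHA+PCA, for 6 h or 24 h. DHA is a long-chain n-3 polyunsaturated fatty acid, PRO a short-chain fatty acid and PCA a metabolite of cyanidin glucosides. Each of the 12 groups had 3 samples from independent cultures, and the RNA of 3 replicates of a culture was pooled before sequencing, so that all 36 libraries come from a single cell line. The comparisons ask whether DHA alters the expression of lipid synthesis genes and whether PRO or PCA alters that response.

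The mevalonate pathway builds isoprenoid units from acetyl-CoA and delivers them to cholesterol, to prenyl anchors on proteins, and to dolichol and ubiquinone. In hepatocytes its genes are under sterol feedback through the SREBP transcription factors, which act on the promoters of many of its members together with factors that bind CCAAT boxes and GC boxes. ACAT2 joins 2 molecules of acetyl-CoA in the cytosol, and HMGCS1 adds another acetyl group to give HMG-CoA. MVK and PMVK phosphorylate mevalonate in turn, and MVD decarboxylates the product to isopentenyl diphosphate. IDI1 isomerizes that unit, FDPS condenses units to farnesyl diphosphate and GGPS1 extends it to geranylgeranyl diphosphate.

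In the hg19 coordinates of the deposited table, ACAT2 spanned chr6:160182989-160200087 on the plus strand and HMGCS1 chr5:43287572-43313614 on the minus strand. MVK lay at chr12:110011500-110035075 (plus), PMVK at chr1:154897208-154909484 (minus) and MVD at chr16:88718348-88729557 (minus). IDI1 lay at chr10:1085964-1095061 (minus), FDPS at chr1:155278539-155290457 (plus) and GGPS1 at chr1:235491753-235507844 (plus). Promoter sequence from RefSeq (250 bases before to 50 after the gene start, table build GRCh38.p14) was matched for 7 of the 8 genes. HMGCS1, MVK, MVD and FDPS are shown because they were the only 4 of the 7 whose window held a CCAAT box (CCAAT on either strand). Each line below gives the part of the window that lies upstream of the RefSeq start and of the start used for counting, 5′ to 3′ on the gene's strand, with CCAAT or its complement ATTGG in capitals. Each whole window matched its own chromosome of GRCh37 exactly once, and the printed stretches lie at chr5:43313615-43313764 (minus, HMGCS1), chr12:110011349-110011499 (plus, MVK), chr16:88729558-88729749 (minus, MVD) and chr1:155278407-155278538 (plus, FDPS).
HMGCS1: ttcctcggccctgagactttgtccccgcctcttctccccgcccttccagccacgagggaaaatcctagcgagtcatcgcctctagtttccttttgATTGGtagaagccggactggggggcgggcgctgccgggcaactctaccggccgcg
MVK: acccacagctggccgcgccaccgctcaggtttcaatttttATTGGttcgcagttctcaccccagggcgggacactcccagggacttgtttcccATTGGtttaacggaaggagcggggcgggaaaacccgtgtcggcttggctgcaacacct
MVD: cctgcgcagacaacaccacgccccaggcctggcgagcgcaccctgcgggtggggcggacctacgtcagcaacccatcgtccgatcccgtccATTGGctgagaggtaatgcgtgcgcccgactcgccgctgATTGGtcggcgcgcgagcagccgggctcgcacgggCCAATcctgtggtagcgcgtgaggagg
FDPS: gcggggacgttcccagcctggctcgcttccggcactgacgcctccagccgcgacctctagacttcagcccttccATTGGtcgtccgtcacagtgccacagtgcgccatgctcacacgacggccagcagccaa
In the whole windows, HMGCS1 held 2 CCAAT boxes, MVD and FDPS 3 each and MVK 5. Upstream of the start used for counting as well, HMGCS1 held 1, MVK 2, MVD 3 and FDPS 1. Among the promoters of 14125 genes of the count table, 36.3% held a CCAAT box, 12.3% held 2 or more, 3.79% held 3 or more and 0.425% held 5 or more. A GC box (GGGCGG on either strand) lay in 6 of the 7 windows, all but that of GGPS1, against 59.6% of the table's promoters. The sterol element letters TCACNCCAC, the shorter CACNCCAC and the E-box CACGTG were in 0 of the 7 windows, against 1.14%, 5.95% and 8.89% of the table's promoters, which says only that these letters are not in these windows. For IDI1 and GGPS1 the RefSeq start lies 7583 and 1222 bases upstream of the start used for counting, so that their windows do not border the counted transcript. For PMVK the start used for counting lies 289 bases upstream of the RefSeq start. Its whole window therefore lies inside the counted gene and shows nothing of the sequence upstream of it.

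**Figure D1:**
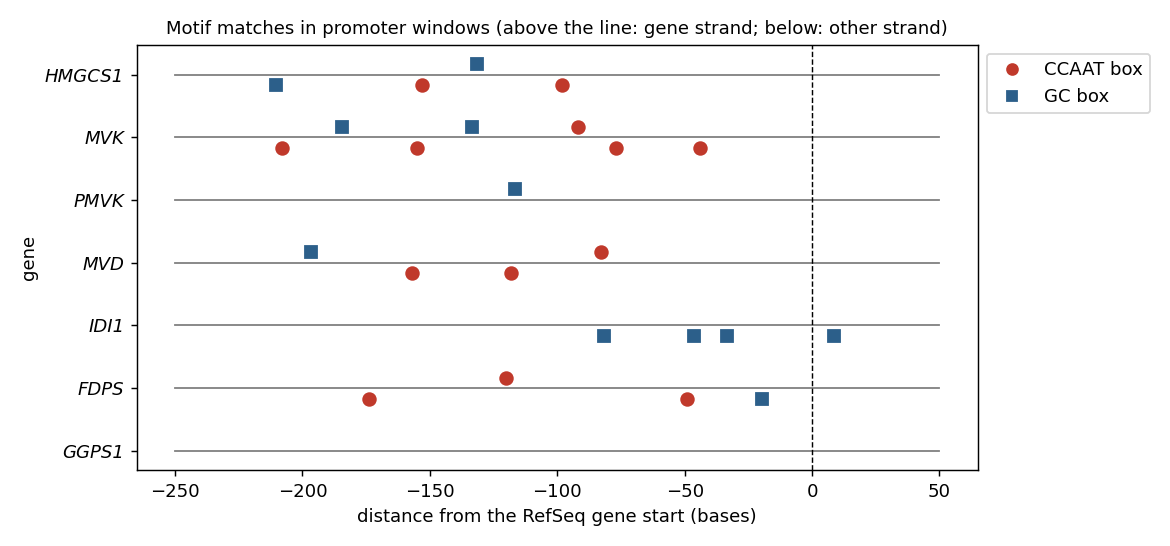
Positions of CCAAT boxes (red circles) and GC boxes (blue squares) in the promoter windows of 7 genes, with the distance from the RefSeq gene start in bases on the x axis and the gene strand above each line. CCAAT boxes lie in the windows of HMGCS1 (2), MVK (5), MVD (3) and FDPS (3), all upstream of the RefSeq start. Of these, 1 (HMGCS1), 2 (MVK), 3 (MVD) and 1 (FDPS) also lie upstream of the start used for counting.

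Library totals ran from 4659744 to 10788964 counts at 6 h and from 5617341 to 8657882 at 24 h, except replicate 2 of DHA+PRO at 24 h with 42326734. No 2 libraries were the same, since chi-square divided by its degrees of freedom was at least 1.89 over 630 pairs. The 9 hepatocyte markers summed to 20771 to 29273 RPKM (reads per kilobase of counted length, scaled for library size) in every library, the 4 fibroblast markers to at most 3.02 and the 3 endothelial markers to at most 0.268. The 4 leukocyte markers summed to 19.3 to 39.9 RPKM, almost all of it CD68 at 17.6 to 38.5, and PTPRC and CD3E had at most 2 counts in a library. All 8 enzymes passed the filter on low counts at both times, with counts from 42 (PMVK) to 19955 (HMGCS1) in a library. Intervals and tests cover the spread between these samples.

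Per length, the 8 enzymes differed over a wide range in Ctrl cells. At 24 h, ACAT2 was highest at 388 ± 31.8 RPKM (SD, n = 3), followed by FDPS at 284 ± 16.01 and MVD at 186 ± 12.7. HMGCS1 came next at 161 ± 6.52 RPKM, then IDI1 at 139 ± 14.97 and MVK at 57.1 ± 2.59. GGPS1, the branch enzyme for geranylgeranyl diphosphate, stood at 17.02 ± 2.89 RPKM and PMVK was lowest at 9.31 ± 1.05. No 2 neighbours in this order overlapped in their samples. At 6 h the order was ACAT2 (220 ± 20.2), FDPS (176 ± 15.96), IDI1 (89.0 ± 5.88), HMGCS1 (66.2 ± 2.67), MVD (47.4 ± 7.18), MVK (31.1 ± 4.91), GGPS1 (14.6 ± 2.22) and PMVK (6.30 ± 1.47 RPKM), again without overlap between neighbours. The order rests on the counted length, since per genomic span HMGCS1 ranked 1 and ACAT2 ranked 5 at 24 h, and both orders put PMVK last.

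**Figure D2:**
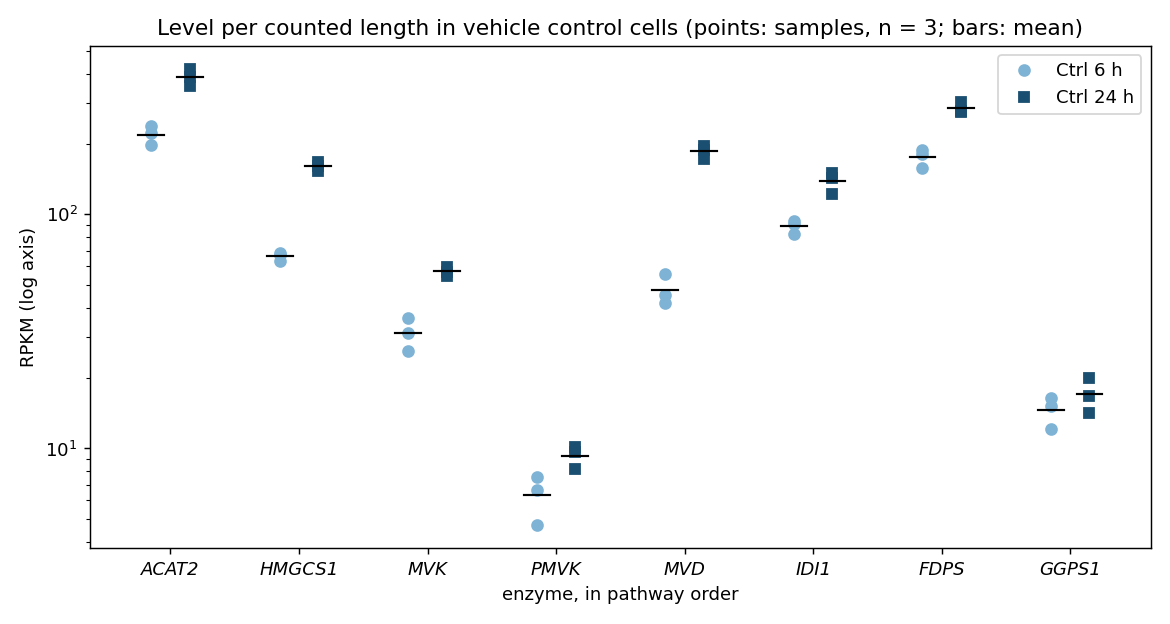
Level of each enzyme in the 3 Ctrl samples at 6 h (light circles) and 24 h (dark squares), in RPKM on a log axis, with bars at the means. At 24 h ACAT2 is highest (388 RPKM) and PMVK lowest (9.31 RPKM), and GGPS1 is the enzyme whose 2 times lie closest together.

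After 24 h with DHA, 6 of the 8 enzymes were lower and none was higher, in the effect pooled over DHA against Ctrl, DHA+PRO against PRO and DHA+PCA against PCA. The called enzymes were ACAT2, HMGCS1, MVK, MVD, IDI1 and FDPS, and the genes called lower made up 0.942% of the 11893 genes tested. The median log2 fold change of the 8 was -0.45, against 0.01 over all genes tested. A gene was called at an adjusted p of at most 0.05 (edgeR quasi-likelihood test with Benjamini-Hochberg adjustment across the genes tested at that time) with a mean log2 CPM (counts scaled to library size) above 0.

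HMGCS1, which makes HMG-CoA, fell most. Its CPM in Ctrl was 879, 910 and 839, in DHA 598, 675 and 503, in DHA+PRO 439, 478 and 542, and in DHA+PCA 538, 581 and 466. Over the 9 samples with DHA it ran from 439 to 675 CPM (median 538), and over the 9 without DHA from 793 to 1152 (median 841). The samples with and without DHA did not overlap. The pooled log2 fold change was -0.72 (SE 0.069, edgeR adjusted p = 3.22e-07), a level 39.4% lower. In bulk RNA, fewer cells with a transcript and less of it in each cell cannot be told apart.

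FDPS and ACAT2 were the other two enzymes whose 18 samples separated completely at 24 h, a pattern that 0.311% of the genes tested showed in the lower direction. FDPS had 313, 309 and 342 CPM in Ctrl, 218, 213 and 241 in DHA, 245, 231 and 248 in DHA+PRO, and 239, 266 and 245 in DHA+PCA. Its pooled log2 fold change was -0.49 (SE 0.048, edgeR adjusted p = 4.1e-07). ACAT2 had 390, 357 and 421 CPM in Ctrl, 286, 287 and 287 in DHA, 291, 273 and 319.6 in DHA+PRO, and 275, 315 and 304 in DHA+PCA. The pooled log2 fold change of ACAT2 was -0.41 (SE 0.053, edgeR adjusted p = 2.72e-05), and its DHA samples stood closest together of the 3 groups with DHA.

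MVD, which makes isopentenyl diphosphate, fell by nearly as much as HMGCS1. It had 319.5, 366 and 351 CPM in Ctrl, 203, 210.0 and 244 in DHA, 169, 222 and 229 in DHA+PRO, and 218, 177 and 198 in DHA+PCA. The one sample without DHA that fell among those with DHA was replicate 1 of PRO at 186 CPM, where the other two PRO samples had 366 and 304. The pooled log2 fold change was -0.66 (SE 0.092, edgeR adjusted p = 7.42e-05).

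IDI1, the isomerase, had 295, 282 and 239 CPM in Ctrl, 199, 241 and 172 in DHA, 163, 168 and 173 in DHA+PRO, and 179, 207 and 174 in DHA+PCA. Replicate 2 of DHA, at 241 CPM, overlapped the samples without DHA, whose lowest value was 231. Its pooled log2 fold change was -0.50 (SE 0.069, edgeR adjusted p = 7.3e-05). MVK, the mevalonate kinase, had 114, 124 and 118 CPM in Ctrl, 95.4, 91.2 and 93.7 in DHA, 81.0, 89.3 and 86.7 in DHA+PRO, and 89.6, 73.2 and 99.0 in DHA+PCA. The PRO samples of MVK (85.2, 104 and 97.1 CPM) lay in or near the range of those with DHA. Its pooled log2 fold change was the smallest of the 6 at -0.35 (SE 0.065, edgeR adjusted p = 0.00262).

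PMVK and GGPS1 were not called. PMVK ran from 9.02 to 14.2 CPM over the samples with DHA and from 8.99 to 14.6 without (pooled log2 fold change -0.02, 95% interval -0.24 to 0.20, edgeR adjusted p = 0.969). GGPS1 ran from 37.0 to 50.3 CPM with DHA and from 39.1 to 62.8 without (log2 fold change -0.11, 95% interval -0.29 to 0.06, edgeR adjusted p = 0.712). The ranges overlapped for both, and both intervals exclude a fall of the size seen for HMGCS1.

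**Figure D3:**
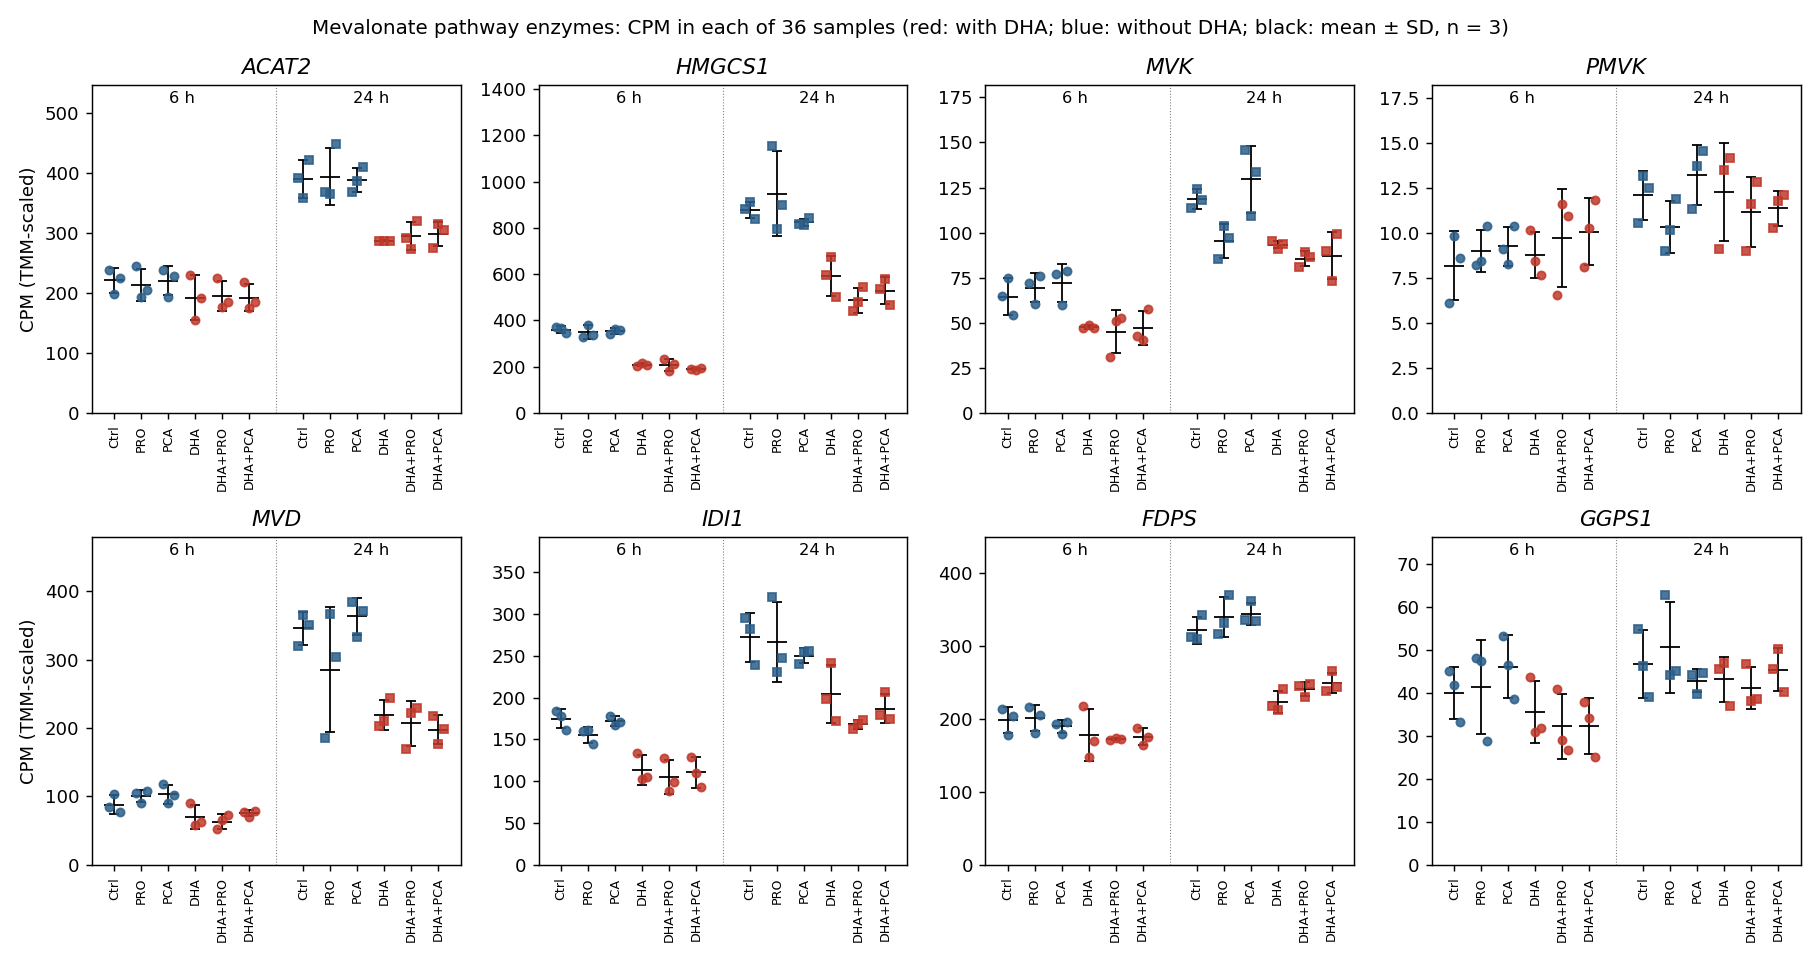
CPM of each enzyme in all 36 samples, by treatment at 6 h (circles) and 24 h (squares), red with DHA and blue without, with black bars for the mean ± SD (n = 3). At 24 h the red points of HMGCS1, FDPS and ACAT2 lie below every blue point, and those of PMVK and GGPS1 are mixed with them.

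Against Ctrl alone the 3 DHA treatments gave fewer calls at 24 h. DHA lowered 3 enzymes (0.168% of genes tested were called lower), FDPS by a log2 fold change of -0.52, HMGCS1 of -0.56 and ACAT2 of -0.44 (edgeR adjusted p = 0.0030, 0.0466 and 0.0412). DHA+PRO lowered 5 (0.294%), HMGCS1 (-0.85), MVD (-0.74), IDI1 (-0.70), FDPS (-0.42) and ACAT2 (-0.41), and DHA+PCA lowered 2 (0.235%), MVD (-0.80) and HMGCS1 (-0.73). These comparisons share the Ctrl samples. With DHA alone MVD had a log2 fold change of -0.65 and IDI1 of -0.41, and neither was called (edgeR adjusted p = 0.135 and 0.354). MVK had log2 fold changes of -0.34, -0.47 and -0.44 in DHA, DHA+PRO and DHA+PCA, with an edgeR adjusted p of 0.489, 0.0683 and 0.131. The samples of DHA did not overlap those of Ctrl for 5 enzymes (6.11% of genes tested), those of DHA+PRO for 6 (7.69%) and those of DHA+PCA for 6 (6.42%), all lower. Against their own partner without DHA, DHA+PRO lowered HMGCS1, IDI1 and FDPS (0.185% of genes tested) and DHA+PCA lowered HMGCS1, MVD, MVK and FDPS (0.235%) at 24 h, and each lowered HMGCS1 alone at 6 h (0.00842% and 0.0253%).

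These single-treatment counts turned on single libraries, unlike the pooled one, which stayed at 6 in all 18 fits that left out a library. For DHA, the count was 1 without replicates 1 or 3 of Ctrl or DHA, replicates 1, 2 or 3 of PCA or DHA+PRO, or replicates 1 or 2 of DHA+PCA, and FDPS was called in all 18 fits, ACAT2 and HMGCS1 in 4 each. For DHA+PRO it was 2 or 3 without replicates 1, 2 or 3 of Ctrl or DHA+PRO, replicate 2 of DHA or replicate 3 of DHA+PCA, and for DHA+PCA 1 without replicate 2 of Ctrl or replicates 2 or 3 of DHA+PCA and 5 without replicate 1 of PRO. The labels hold 2 series of library numbers, and at 24 h the pooled log2 fold changes of the 6 called enzymes ran from -0.70 to -0.37 within the earlier series and from -0.77 to -0.31 within the later. The later series at 24 h is replicate 3 of each group, so its range rests on a single library per group.

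After 6 h, 4 enzymes were already lower with DHA in the pooled effect, HMGCS1, IDI1, MVK and MVD, and none was higher (0.152% of the 11872 genes tested were called lower). The median log2 fold change of the 8 was -0.42, against 0.00 over all genes tested. HMGCS1 had 372, 366 and 345 CPM in Ctrl, 203, 216 and 209 in DHA, 232, 182 and 213 in DHA+PRO, and 193, 184 and 194 in DHA+PCA. Its lowest sample without DHA, at 327 CPM, stood well above the highest with DHA at 232. The pooled log2 fold change was -0.81 (SE 0.056, edgeR adjusted p = 6.18e-08), ranked 1 by p among all genes tested.

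IDI1 was the other enzyme whose samples separated at 6 h, as did 0.101% of genes tested in the lower direction. It had 184, 178 and 162 CPM in Ctrl, 134, 102 and 105 in DHA, 127, 87.9 and 99.5 in DHA+PRO, and 129, 109 and 93.0 in DHA+PCA, with a pooled log2 fold change of -0.61 (SE 0.079, edgeR adjusted p = 0.00032). MVK ran from 31.3 to 57.7 CPM with DHA and from 54.3 to 78.6 without (log2 fold change -0.57, SE 0.106, edgeR adjusted p = 0.0261). MVD ran from 51.8 to 90.5 CPM with DHA and from 77.4 to 118 without (log2 fold change -0.49, SE 0.094, edgeR adjusted p = 0.0266). The ranges of MVK and MVD overlapped at their edges.

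The other 4 enzymes had log2 fold changes at 6 h of -0.35 (GGPS1), -0.18 (ACAT2), -0.17 (FDPS) and 0.10 (PMVK). None was called, each with an edgeR adjusted p of 1.00. GGPS1, ACAT2 and FDPS did have an unadjusted p under 0.05 by edgeR, as did 2.88% of genes tested. GGPS1 and ACAT2 were called lower in the fit with a replicate block, given below. Without replicates 1 or 2 of Ctrl, replicate 3 of DHA, replicates 1 or 3 of PRO or PCA, or replicates 1 or 2 of DHA+PCA, the count at 6 h was 2, and HMGCS1 and IDI1 were called in all 18 such fits. MVK was also not called without replicate 1 of DHA, nor MVD without replicate 2 of DHA or DHA+PRO or replicate 3 of DHA+PCA. Against Ctrl alone, HMGCS1 was the single enzyme called in each of the 3 DHA treatments (0.0168% of genes tested were called lower in each), at a log2 fold change of -0.79 (DHA), -0.80 (DHA+PRO) and -0.93 (DHA+PCA) (edgeR adjusted p = 0.00107, 0.000905 and 9.23e-05). The 3 results share the Ctrl samples, and in a fit of the compared groups alone HMGCS1 was not called for DHA or DHA+PRO. Without replicate 1 of DHA+PRO, 2 enzymes were called for DHA+PRO and for DHA+PCA, and without replicate 1 of DHA or of DHA+PCA, 2 for DHA+PRO. Within the earlier library series the pooled changes of ACAT2, HMGCS1, MVK, MVD, IDI1 and FDPS ran from -0.77 to -0.10, and within the later from -0.79 to -0.23. The series are not balanced at 6 h. For DHA+PRO, replicates 2 and 3 are of the later series and replicate 1 alone of the earlier, while in every other group only replicate 3 is of the later.

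**Figure D4:**
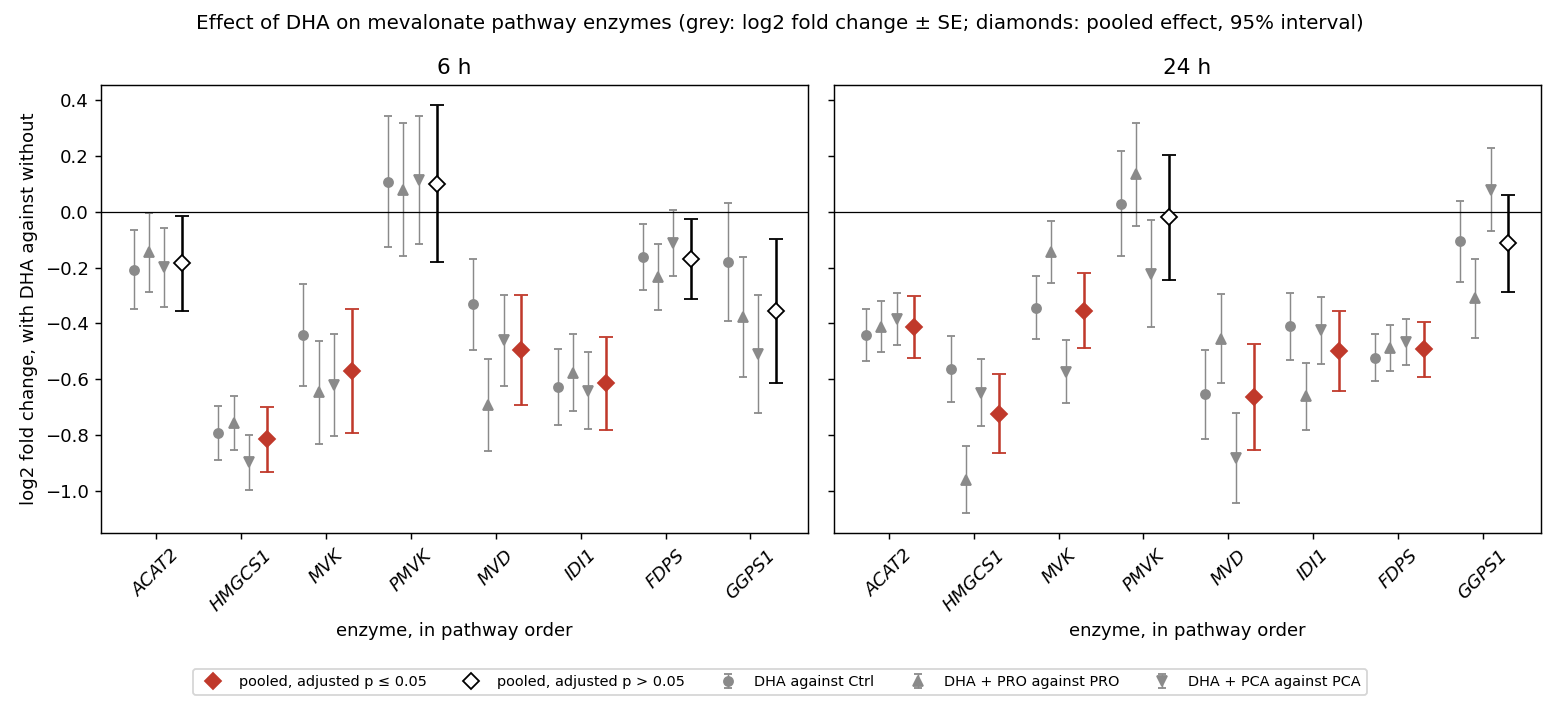
Log2 fold change of each enzyme with DHA against without, at 6 h and 24 h. Grey symbols are the 3 single comparisons with their SE, and diamonds the pooled effect with its 95% interval, red where called. At 24 h 6 diamonds are red, from -0.72 (HMGCS1) to -0.35 (MVK), and at 6 h 4 are red.

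In the main fit, the test of the difference between the times called none of the 8 enzymes, and none of the 12046 genes tested together (0%). With the replicate block described below, FDPS was called for the pooled difference, where 0.108% of genes tested were called lower. FDPS had the largest such difference, a pooled effect 0.33 lower on the log2 scale at 24 h than at 6 h (difference -0.33, 95% interval -0.50 to -0.16, unadjusted p = 0.000336, edgeR adjusted p = 0.507). At 6 h its samples with DHA lay below the lowest without DHA (179 CPM), except replicate 1 of DHA+PCA at 188 CPM and replicate 1 of DHA at 217 CPM, which was above the highest without DHA. ACAT2 was the other enzyme with an unadjusted p under 0.05 (difference -0.24, 95% interval -0.44 to -0.03; 3.05% of genes tested had one), and DESeq2 called 0 of the 8.

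None of the 8 enzymes was called with PRO or PCA alone at either time, by edgeR or by DESeq2. By edgeR, 0% of genes tested were called in each of the 4 comparisons. The log2 fold changes ran from -0.32 to 0.12 for PRO and from -0.12 to 0.13 for PCA at 24 h, and from -0.17 to 0.19 and from -0.07 to 0.23 at 6 h. At 24 h the member nearest a call with PRO was MVK, with 85.2, 104 and 97.1 CPM against 114, 124 and 118 in Ctrl. Its samples did not overlap (3.72% of genes tested were lower in this way), at a log2 fold change of -0.32 with an unadjusted p of 0.00817 and an edgeR adjusted p of 0.782. MVK was the only one of the 8 with an unadjusted p under 0.05 for PRO at 24 h (6.02% of genes tested), and for PCA at 24 h and for both compounds at 6 h there was none. The pooled effects of PRO and PCA called none of the 8 at either time (at 24 h, 0.00841% of genes tested were called for PRO and 0% for PCA, and at 6 h 0% for both), and MVK (PRO, 5.52% of genes tested) and FDPS (PCA, 4.47%), both at 24 h, were the enzymes with an unadjusted p under 0.05.

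Adding PRO or PCA to DHA was not shown to alter the response of any of the 8. The direct comparisons with DHA called 0 of the 8 and 0% of genes tested, as did the tests of a DHA by PRO or DHA by PCA interaction, at both times, by edgeR, and DESeq2 called 0 of the 8 as well. For DHA+PRO against DHA at 24 h the log2 fold changes ran from -0.29 to 0.10 with 95% intervals from -0.53 to 0.27, and for DHA+PCA against DHA from -0.17 to 0.16 with intervals from -0.51 to 0.37. HMGCS1 was 0.29 lower on the log2 scale with DHA+PRO than with DHA at 24 h (log2 fold change -0.29, 95% interval -0.53 to -0.04, unadjusted p = 0.0235, edgeR adjusted p = 0.999). IDI1 differed by as much (log2 fold change -0.29, 95% interval -0.53 to -0.04, unadjusted p = 0.0254), and the samples overlapped for both. MVK was the one enzyme whose samples did not overlap there (4.64% of genes tested were lower in this way), at -0.12. HMGCS1 and IDI1 were the 2 enzymes with an unadjusted p under 0.05 there (4.43% of genes tested), against none for DHA+PCA, and HMGCS1 was the one with an unadjusted p under 0.05 for the DHA by PRO interaction at 24 h (5% of genes tested), at a log2 difference of -0.40 (edgeR adjusted p = 0.955). At 6 h none of the 8 had an unadjusted p under 0.05 in these tests.

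Most of these enzymes also differed with time in culture. In Ctrl, 7 of the 8 were higher at 24 h than at 6 h, where 14.1% of the 12046 genes tested were called higher and 11.9% lower, and the median log2 fold change of the 8 was 0.76, against 0.00 over all genes. MVD rose from 83.8, 103 and 77.4 CPM to 319.5, 366 and 351, a fold of 3.91 (log2 fold change 1.97, SE 0.176, edgeR adjusted p = 2.81e-10). HMGCS1 rose 2.43-fold (log2 1.28, SE 0.114, edgeR adjusted p = 2.53e-10), from a highest value of 372 CPM to a lowest of 839. No sample at 6 h reached the lowest at 24 h for either gene.

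MVK (log2 fold change 0.87), ACAT2 (0.82), FDPS (0.69), IDI1 (0.64) and PMVK (0.57, edgeR adjusted p = 0.0427) also rose in Ctrl. GGPS1 did not pass the test (0.21, 95% interval -0.17 to 0.59, edgeR adjusted p = 0.442). Without replicates 1 or 3 of Ctrl at 6 h, or 2 or 3 at 24 h, the count was 6. Over the 3 conditions without DHA the same 7 enzymes rose (24.3% of genes tested were called higher). In each of the other five treatments, a comparison made after the change in Ctrl was seen, ACAT2, HMGCS1, MVK, MVD, IDI1 and FDPS rose and PMVK and GGPS1 were not called, with 8.63% (PRO), 14.5% (PCA), 10.6% (DHA), 10.8% (DHA+PRO) and 10.4% (DHA+PCA) of genes tested called higher. HMGCS1 rose 2.83-fold in DHA, 2.32-fold in DHA+PRO and 2.77-fold in DHA+PCA, so that its level with DHA at 24 h (503 to 675 CPM) exceeded that of Ctrl at 6 h (345 to 372 CPM). With the replicate block described below, FDPS was not called for time in DHA (28% of genes tested were called in either direction). In that fit GGPS1 was called higher in DHA+PCA (25.6%), and PMVK was not among the 6 called in Ctrl (34.8%). Time in culture and time in serum-free medium cannot be told apart.

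Most enzymes after the branch to sterols were also lower with DHA. Of 12 enzymes from squalene synthase to cholesterol, 11 were lower with DHA in the pooled effect at 24 h (0.942% of genes tested were called lower). None was higher, and the median log2 fold change was -0.42. FDFT1, which joins 2 farnesyl diphosphates to squalene, fell by 0.59 on the log2 scale, and MSMO1 and CYP51A1, which demethylate sterol intermediates, and DHCR7, a terminal reductase, each fell by 0.48. At 6 h 5 of the 12 were called lower (0.152% of genes tested), among them MSMO1 (-0.80) and CYP51A1 (-0.47). With a replicate block more of the 12 were called lower at 6 h (0.371% of genes tested), FDFT1 and DHCR7 among them.

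Upstream, 2 of the 3 genes that supply cytosolic acetyl-CoA were lower at 24 h, ACSS2 by a log2 fold change of -0.76 (edgeR adjusted p = 1.84e-10) and the citrate lyase ACLY by -0.50 (edgeR adjusted p = 7.86e-08). Neither was called at 6 h in the main fit, and both were called lower there with a replicate block, given below. Of the 12 enzymes that use isoprenoid diphosphates for prenylation, dolichol, ubiquinone or tRNA, 0 were called at either time. Over all genes tested, 1.23% at 24 h and 0.202% at 6 h were called in either direction. So few calls mean that 0 of 12 does not set this list apart. Its median log2 fold change was 0.01 at 24 h. Of the 7 SREBP genes listed 6 were tested, and 2 were lower at 24 h, SREBF1 (-0.68) and SREBF2 (-0.23, edgeR adjusted p = 0.0478). SREBF1 was also lower at 6 h (-0.63), and INSIG1, with counts of 0 to 2 in the table, was not tested. The 4 mitochondrial ketone body enzymes, among them ACAT1 (0.10), the mitochondrial paralog of ACAT2, were not called at 24 h or 6 h.

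Genes beside the 8 were compared because the library kit does not mark strand. TCP1 overlaps ACAT2 by 558 bp on the other strand and had a pooled log2 fold change of 0.10 at 24 h (edgeR adjusted p = 0.434), so that reads of the overlap cannot be told apart and the values of ACAT2 are uncertain to that extent. RUSC1-AS1 overlaps FDPS by 207 bp with counts of 0 to 6 and was not tested. MMAB starts 141 bp from MVK in the opposite direction, and had -0.20 at 24 h (edgeR adjusted p = 0.122) and -0.30 at 6 h (edgeR adjusted p = 0.244). CYBA beside MVD (0.14), RUSC1 beside FDPS (0.11) and ARID4B beside GGPS1 (-0.13) were not called at 24 h, nor was IDI2, the paralog of IDI1 (0.21). The annotation lists 8 pseudogenes of FDPS and 3 of IDI1, so that both values are uncertain where reads also match a near-identical copy.

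The 5 genes outside the 8 whose log2 fold changes lay closest to the median of the 8, over the 10 comparisons of a treatment with Ctrl, were ACLY, CLCN6, DHCR7, PCK1 and ACSL3. The mean absolute difference was 0.064 for ACLY and 0.076 for ACSL3 among 11698 genes, and the 10 comparisons share 2 sets of Ctrl samples. Among the 8 themselves ACAT2 lay closest to the median (0.065) and PMVK farthest (0.322).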

How the data were processed

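HepG2 RNA-seq counts were taken for 36 samples, and groups and replicate numbers came from the sample labels. The authors deposited unnormalized read counts per RefSeq gene, made by aligning TruSeq RNA v2 libraries to hg19/GRCh37 with STAR and the iRNA-seq pipeline. The deposited table also gives gene positions and counted lengths (an other unit), used for RPKM. Counts were tested in R 4.3.3 with edgeR 4.0.16 (filterByExpr, TMM, quasi-likelihood F test, Benjamini-Hochberg over all genes tested), in a fit of 18 samples per time and a joint fit of 36, in which CPM were also scaled. The study's methods give a one-way analysis of variance with Tukey's test for treatments, and edgeR was used here because the deposited values are counts. The fit was tested on simulated counts. Alternatives were DESeq2 1.42.0, other scalings, no filter, a replicate block, library series as a factor, only the groups compared, and each library left out. Members were named by all 8 symbols, other genes by neighbourhood within 5 kb, by at most 4 of smallest p per pathway list, and by likeness. The members and lists were chosen with earlier results of these data known. Some genes of the pathway and lists are not reported here. Depth limits PMVK most, and counts reflect reads, not molecules.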

Additional observations from a re-analysis of the deposited data

How the results depend on the processing

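The pooled count of enzymes lower with DHA at 24 h was 6 under each of the 7 alternatives run and without each library in turn. All groups enter the pooled effect, so a fit of only the groups compared is the same fit. No direction of a called value turned. Of the counts that moved by more than 1.5 times, DHA+PCA against Ctrl at 24 h was 6 by DESeq2's Wald test, 5 without the filter and 5 with library series as a factor. Over all genes the calls there numbered 55, 74 and 53, against 34 in the main fit. At 6 h DHA, DHA+PRO and DHA+PCA each gave 2 by the Wald test and 2 with library series. Over all genes the calls there numbered 10, 11 and 7 by the Wald test and 8, 10 and 8 with library series, against 2 each in the main fit. DHA+PRO at 6 h gave 2 without the filter (7 over all genes). With only the groups compared DHA and DHA+PRO at 6 h gave 0, and no gene at all was called there. Leaving out each library gave 1 to 4 for DHA, 2 to 6 for DHA+PRO and 1 to 5 for DHA+PCA at 24 h, 2 to 4 for the pooled effect at 6 h, and 1 to 2 for DHA+PRO and DHA+PCA at 6 h. The cause was not tested. DESeq2 size factors and upper-quartile scaling moved no count by more than 1.5 times. Ranking per genomic span changed the order of levels, as given above.

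Same-numbered samples are not stated to share a culture. Correlations of their deviations were above 0.1 in 36 of 45 pairs at 6 h and 34 of 45 at 24 h. Of 18 samples per time, 16 at 6 h and 17 at 24 h correlated best with their own number. The column names also give same-numbered samples the same set of pooled replicate numbers, in every treatment and at both times. Both are hints of shared cultures, and the study's methods describe 3 independent cultures, each with 3 pooled replicates. The main fit does not use such a pairing, so its calls leave it out. With a replicate block more genes were called in general. The counts for DHA, DHA+PRO and DHA+PCA against Ctrl at 24 h were 4, 6 and 6 (0.488%, 0.732% and 0.706% of genes tested were called lower). At 6 h they were 2 each (0.101%, 0.0758% and 0.0842%). The pooled count was 6 at each time, with 2.13% of genes tested called lower at 24 h and 0.371% at 6 h, against 0.942% and 0.152% without the block. The difference of the pooled effect between times called 1 (FDPS, 0.108%). The pooled calls at 24 h were the same enzymes as without the block. At 6 h GGPS1 (edgeR adjusted p = 0.00854) and ACAT2 (0.0439) were called beside HMGCS1, IDI1, MVK and MVD, and FDPS was not, while ACLY (0.00426) and ACSS2 (0.00178) were called at 6 h and MMAB at 24 h (0.0343).

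Depth limits PMVK, whose lowest count was 42, more than the other enzymes.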
